A study of Mus musculus with 6 samples.

Results

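Small leucine-rich proteoglycans are secreted proteins whose core is built of leucine-rich repeats, and 8 of their genes were examined in cultured mouse astrocytes: Ogn, Omd, Prelp, Fmod, Dcn, Bgn, Lum and Aspn. The members were all probes on the arrays, control spots left out, whose accession belonged to 1 of these genes. That gave 9 probes for 8 of the 17270 named genes on the arrays, 1 probe per gene and 2 for Prelp. Of these, 7 genes were bright enough to be tested, and Aspn was not.

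Most of these proteins bind fibrillar collagen outside the cell and set the width and spacing of its fibrils, and several also hold growth factors such as TGF-β. Many carry a glycosaminoglycan chain, which is chondroitin or dermatan sulfate in decorin and biglycan and keratan sulfate in fibromodulin and lumican. In the brain they are best known from the fibroblasts of the meninges and around vessels. GSK-3 is a kinase that marks β-catenin for destruction, and blocking it lets β-catenin build up and switch on Wnt target genes.

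The arrays fall into 3 groups of 2, all from primary cultures of striatal and cortical astrocytes of wild-type C57BL/6J pups 1 day old. Washout cultures were given Ro3303544, an inhibitor of GSK-3, at 1 µM for 48 h, followed by 48 h in medium free of the drug. Ro cultures received the inhibitor at the same dose and for the same time and were taken at its end. Control cultures received neither the drug nor a washout, and the labels call them both control medium and DMSO-treated. All cultures grew in medium with 10% serum and had 5 µM cytosine arabinoside, which kills dividing cells, for 2 days before treatment began at 13 days in vitro. Per the labels, under 1% of the cells were Iba1-positive microglia, and nothing in the labels tells whether replicate cultures were prepared separately, so p-values measure only the spread between these arrays. Washout cultures were harvested on day 17 and the others on day 15, without a control of the later age. Both washout arrays lay on a second slide, scanned at another time, so that washout, culture age and slide cannot be told apart.

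The files hold the brightness of each spot, and levels are given here as multiples of the 75th percentile of each array, which was 631 to 807 intensity units. Between 60.3% and 65.1% of probes were well above background. With 6 arrays, precision is limited by their number. Brightness depends on the probe, so no gene's level is set against another's. The Wnt target genes Axin2 and Sp5, which report on GSK-3 inhibition, were higher in Ro than in control by 4.29 ± 0.13 and 8.23 ± 0.08 on the log2 scale, and in washout they were still 1.46 and 2.02 above control. Changes throughout are log2 differences of group means ± their standard error in the limma fit, each mean being of 2 arrays. The threshold was a Benjamini-Hochberg adjusted p under 0.05 over all 20088 features tested. In whole cultures, fewer cells of a type and less RNA per cell cannot be told apart.

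Ogn, Prelp, Omd and Fmod fell by more than 2-fold with the inhibitor and rose again after washout, Ogn and Prelp to above the control level. Osteoglycin, made by Ogn, is a proteoglycan of connective tissue that takes part in collagen fibril assembly. Ogn had levels of 24.4 and 23.0 in washout cultures, 6.40 and 7.25 in Ro cultures, and 16.1 and 14.9 in control cultures. The 3 groups did not overlap, with washout highest and Ro lowest. Ogn was lower in Ro than in control by a log2 change of -1.18 ± 0.10 (adjusted p = 0.00094), and higher in washout than in Ro by 1.80 ± 0.10 (adjusted p = 0.00030). It was also 0.61 ± 0.10 higher in washout than in control (adjusted p = 0.027).

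Prelp makes a protein of basement membranes whose basic end binds heparin and perlecan. Its brighter probe had levels of 40.4 and 39.1 in washout, 11.9 and 12.6 in Ro, and 27.6 and 26.5 in control. Its dimmer probe had 0.204 and 0.224 in washout, 0.0702 and 0.0693 in Ro, and 0.174 and 0.155 in control. Both probes placed washout highest and Ro lowest, without overlap. The brighter probe changed by -1.14 ± 0.07 in Ro against control (adjusted p = 0.00050) and by 1.70 ± 0.07 in washout against Ro (adjusted p = 0.00022). With every probe tested on its own, the dimmer probe changed by -1.24 and 1.62 in the same comparisons, and both passed the threshold. In washout against control the brighter probe was higher by 0.55 ± 0.07 (adjusted p = 0.019), while the dimmer probe differed by 0.38 ± 0.09 (adjusted p = 0.076) and did not pass.

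Omd encodes osteomodulin, a keratan sulfate proteoglycan best known from mineralised tissue, where it binds cells and collagen. Its levels were 3.32 and 3.14 in washout, 0.718 and 0.838 in Ro, and 2.58 and 2.52 in control. Ro cultures were lowest, by -1.72 ± 0.10 against control (adjusted p = 0.00037), and washout was 2.06 ± 0.10 above Ro (adjusted p = 0.00026). Washout arrays also lay above both control arrays, but the difference of 0.34 ± 0.10 had an adjusted p of 0.101 and a 95% interval of 0.09 to 0.59. The order of Omd levels was thus the same as for Ogn and Prelp, with washout and control not separated by the test.

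Fmod, the gene of fibromodulin, which binds collagen and guides its cross-linking, had the largest change of the 7 genes in Ro against control. Its levels were 8.76 and 8.80 in washout, 1.66 and 1.74 in Ro, and 9.88 and 9.16 in control. Ro arrays were 5.61-fold below control (log2 -2.49 ± 0.08, adjusted p = 0.00011). Counting Fmod itself, 95 of all features fell at least as far. After washout Fmod was 2.37 ± 0.08 above Ro (adjusted p = 0.00015), and 174 features, Fmod among them, rose at least as far. Washout and control did not differ beyond the error: the change was -0.12 ± 0.08 (adjusted p = 0.380, 95% interval -0.31 to 0.08), although both washout arrays lay below both control arrays.

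The calls of Ogn, Prelp, Omd and Fmod in Ro against control and in washout against Ro passed the threshold in all 18 alternative settings tried. Among the 18, fitting only the groups compared and leaving out either array of the third group are the same fit, counted each time. The higher level of Ogn in washout than in control passed in 9 of the 18 and that of Prelp in 10. Leaving out any 1 array ended the Ogn call, with an adjusted p of 0.054 without either Ro array, 0.083 without control replicate 1, 0.117 without control replicate 2, 0.091 without washout replicate 1 and 0.061 without washout replicate 2. The Prelp call ended without either Ro array (adjusted p = 0.055), control replicate 1 (0.073), control replicate 2 (0.092) or washout replicate 1 (0.067). Without a Ro array the fit had less to estimate the spread from, while the Ogn and Prelp changes themselves stayed at 0.61 and 0.55.

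**Figure D1:**
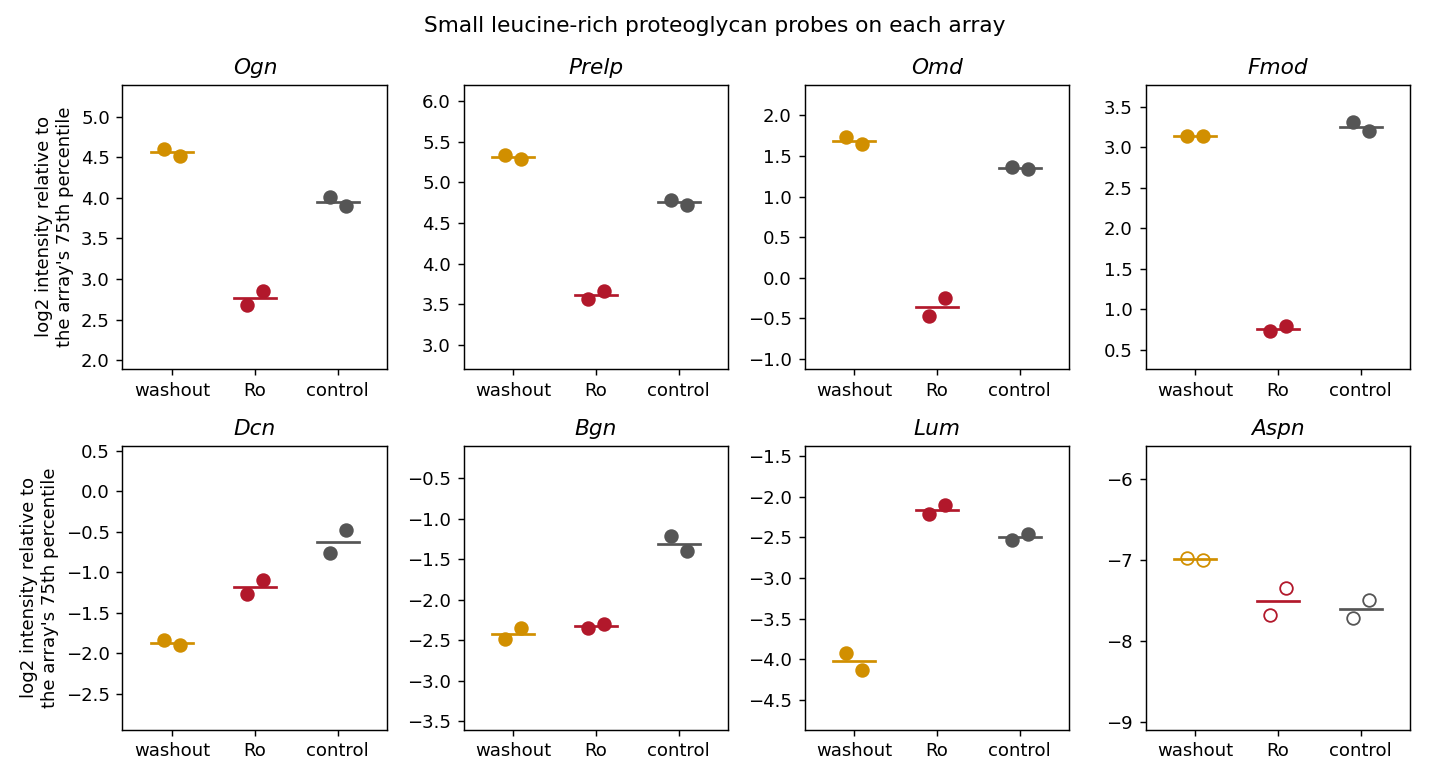
Log2 intensity relative to the 75th percentile of the array for each of the 8 genes (the brighter probe for Prelp), with a point per array, 2 per group, and a line at the group mean; open points are not well above background. Each panel has its own level axis of equal span: Ogn, Prelp, Omd and Fmod are lowest in Ro, Dcn and Lum are lowest in washout, and Bgn is highest in control.

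Because these 4 genes moved in the same direction, the 250 bases before each start site are printed from RefSeq (GRCm38.p6), on the strand of the gene, with matches to the searched motifs in capitals. They lie at chr13:49607765-49608014 for Ogn, chr13:49582212-49582461 for Omd and chr1:134037004-134037253 for Fmod, all on the plus strand. The Prelp stretch is chr1:133921402-133921651 on the minus strand.
Ogn: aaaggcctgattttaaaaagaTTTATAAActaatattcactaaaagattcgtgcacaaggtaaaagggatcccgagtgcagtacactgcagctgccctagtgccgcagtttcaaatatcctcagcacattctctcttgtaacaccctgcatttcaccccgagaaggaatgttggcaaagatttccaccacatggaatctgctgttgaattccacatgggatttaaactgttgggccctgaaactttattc
Omd: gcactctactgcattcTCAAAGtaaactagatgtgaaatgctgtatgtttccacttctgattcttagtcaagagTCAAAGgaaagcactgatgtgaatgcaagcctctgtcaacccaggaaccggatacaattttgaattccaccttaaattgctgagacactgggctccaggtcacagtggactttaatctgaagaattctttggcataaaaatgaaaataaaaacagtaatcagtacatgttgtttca
Prelp: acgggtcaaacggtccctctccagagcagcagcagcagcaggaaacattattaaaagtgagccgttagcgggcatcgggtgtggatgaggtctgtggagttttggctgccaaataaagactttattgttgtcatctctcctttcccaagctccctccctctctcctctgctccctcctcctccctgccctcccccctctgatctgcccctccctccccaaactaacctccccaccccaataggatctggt
Fmod: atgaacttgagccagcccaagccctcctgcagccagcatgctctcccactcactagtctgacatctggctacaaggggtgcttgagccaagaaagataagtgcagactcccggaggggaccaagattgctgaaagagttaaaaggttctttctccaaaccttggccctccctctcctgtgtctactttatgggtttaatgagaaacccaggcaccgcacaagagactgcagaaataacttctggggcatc
The capitals in the Ogn stretch are TATAAA on both strands, overlapping, at positions -229 to -222 from the start site, and those in Omd are the TCF/LEF core CTTTGA, read on the opposite strand at -234 to -229 and -176 to -171. TCF/LEF factors are the partners of β-catenin on DNA. Prelp and Fmod held neither motif, and neither did any of the 4 hold a GC box (GGGCGG) or a CArG box. On either strand, TATAAA was found in 12.4%, CTTTGA in 13.8%, GGGCGG in 32.7% and the CArG box in 1.47% of the 32851 stretches of the same length in the RefSeq table. Bgn, at chrX:73483351-73483600, held CTTTGA 1 time and GGGCGG 3 times, and Aspn held TATAAA 2 times.

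Dcn and Bgn, the closely related pair that carries chondroitin or dermatan sulfate, fell with Ro and were still below control after washout. Decorin, from Dcn, binds type I collagen and TGF-β. Dcn levels were 0.281 and 0.268 in washout, 0.416 and 0.469 in Ro, and 0.588 and 0.718 in control, without overlap and with washout lowest. The change in Ro against control was -0.56 ± 0.12 (adjusted p = 0.021), and that in washout against Ro was -0.69 ± 0.12 (adjusted p = 0.011). Washout was 2.37-fold below control (log2 -1.24 ± 0.12, adjusted p = 0.012). With no filter on dim probes this difference missed the threshold (adjusted p = 0.058), and so did that in Ro against control (0.063). The Ro call for Dcn passed in 14 of 18 settings and was lost without Ro replicate 1 (adjusted p = 0.109), Ro replicate 2 (0.053) or control replicate 2 (0.068). Without Ro replicate 2 the Dcn change in washout against Ro also missed the threshold (0.061), and without control replicate 2 that in washout against control did (0.057).

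Biglycan, from Bgn, binds collagen and TGF-β and, once released from the matrix, signals through Toll-like receptors. Bgn levels were 0.178 and 0.197 in washout, 0.196 and 0.203 in Ro, and 0.431 and 0.378 in control. Control stood apart, and washout and Ro overlapped. Ro was 2.03-fold below control (log2 -1.02 ± 0.10, adjusted p = 0.0016), a call that passed in all 18 settings. Washout was below control by a log2 change of -1.11 ± 0.10 (adjusted p = 0.0096), which passed in 17 of 18 and missed with no filter on dim probes (0.055). Between washout and Ro the difference was -0.09 ± 0.10 (adjusted p = 0.517), with a 95% interval of -0.34 to 0.17.

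Lum followed neither pattern. Lumican, its product, is a keratan sulfate proteoglycan that organises collagen fibrils in cornea and skin. Lum levels were 0.0661 and 0.0570 in washout, 0.215 and 0.232 in Ro, and 0.173 and 0.181 in control. Ro was highest and washout lowest, without overlap. Washout was lower by -1.86 ± 0.10 against Ro (adjusted p = 0.00031) and by -1.53 ± 0.10 against control (adjusted p = 0.0065), and 107 features of 20088, Lum included, fell at least as far in washout against control. In Ro against control Lum was higher by 0.34 ± 0.10 with an adjusted p of 0.0487, which passed in 7 of 18 settings, the repeated fit among them. That call was lost without Ro replicate 1 (adjusted p = 0.118), Ro replicate 2 (0.209), control replicate 1 (0.167) or control replicate 2 (0.115).

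The Lum probe was dim, at 50.4 and 44.5 intensity units in washout, where the dimmest probes called above background read 27.3 and 26.8. With background handled by the normexp model instead, the Lum change was 0.12 in Ro against control (adjusted p = 0.386), -1.04 in washout against Ro and -0.93 in washout against control. The median signal of dim spots around the Lum spot, over that of all dim spots of the array, was 1.19 and 0.942 on the washout arrays, 1.64 and 0.952 on the Ro arrays, and 1.48 and 1.28 on the control arrays. Their part in the Lum differences was not tested.

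Aspn makes asporin, a relative of decorin that binds TGF-β and collagen. Its probe was not well above background on any of the 6 arrays, with levels of 0.00797 and 0.00779 in washout, 0.00488 and 0.00615 in Ro, and 0.00477 and 0.00554 in control. No change is given for Aspn.

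**Figure D2:**
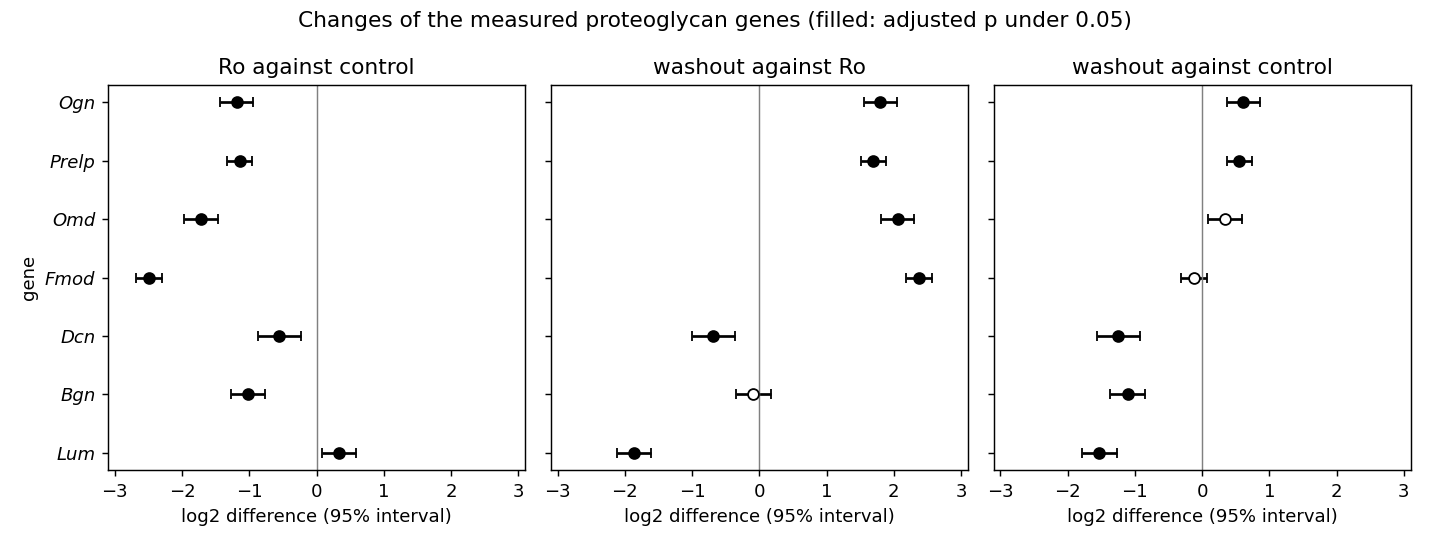
Log2 difference of group means (x axis) for the 7 genes tested (rows) in the 3 comparisons, with 95% intervals from limma; filled points have an adjusted p under 0.05. Fmod shows the largest fall in Ro against control (-2.49) and the largest rise in washout against Ro (2.37), and Lum the largest fall in washout against Ro (-1.86).

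Counted together, 6 of the 7 genes tested were lower in Ro than in control and 1, Lum, was higher. Over all features, 42.1% passed the threshold in Ro against control, 22.7% lower and 19.4% higher. The median change of the 7 was -1.14, against 0.00 over all features. In washout against Ro, 4 genes were higher (Ogn, Prelp, Omd and Fmod) and 2 lower (Dcn and Lum), where 41.5% of all features passed, 21.4% higher and 20.1% lower. In washout against control, 2 were higher (Ogn and Prelp) and 3 lower (Dcn, Bgn and Lum), where 10.1% of all features passed, 4.13% higher and 5.96% lower. The arrays of the groups did not overlap for 7 of 7 genes in Ro against control, 6 of 7 in washout against Ro and 7 of 7 in washout against control, where the shares over all features were 77.3%, 74.4% and 56.2%. Ogn, Prelp, Omd and Fmod were both lower in Ro than in control and higher in washout than in Ro, calls that 16.5% of all features shared. Ogn and Prelp were in addition higher in washout than in control, a set of 3 calls that 1.03% of features had. Dcn and Bgn were lower than control in both Ro and washout, as were 3.49% of features. Of these comparisons each pair shares a group of arrays, so they are not independent of each other.

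Several of these genes lie beside each other in the mouse genome. In the RefSeq gene table Optc, Prelp and Fmod follow each other on chromosome 1, Dcn, Lum, Kera and Epyc on chromosome 10, and Ecm2, Aspn, Omd and Ogn on chromosome 13, while Bgn is on X. The neighbours Prelp and Fmod, and likewise Omd and Ogn, changed in the same direction in Ro against control and in washout against Ro. Dcn and Lum, also neighbours, had changes of -0.56 and 0.34 in Ro against control, and both were lower in washout. Ecm2, which encodes an extracellular matrix protein with leucine-rich repeats and lies in the group of Omd and Ogn, was higher in Ro, where those 2 were lower: its levels were 0.114 and 0.113 in washout, 0.167 and 0.151 in Ro, and 0.0752 and 0.0680 in control. Its changes were 1.15 ± 0.09 in Ro against control, -0.48 ± 0.09 in washout against Ro and 0.67 ± 0.09 in washout against control (adjusted p = 0.00089, 0.013 and 0.020). With normexp, Ecm2 changed by -0.25 in washout against Ro (adjusted p = 0.066) and by 0.30 in washout against control (0.088). With no filter on dim probes its call in washout against control was lost too (0.079). The Ecm2 call in washout against Ro ended without Ro replicate 1 (adjusted p = 0.079), and that in washout against control without either control array (0.062 and 0.090) or either washout array (0.070 and 0.058). Kera and Epyc, which encode the proteoglycans keratocan and epiphycan, were not above background, and Optc, the opticin gene, differed by -0.71 in Ro against control (adjusted p = 0.161).

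**Figure D3:**
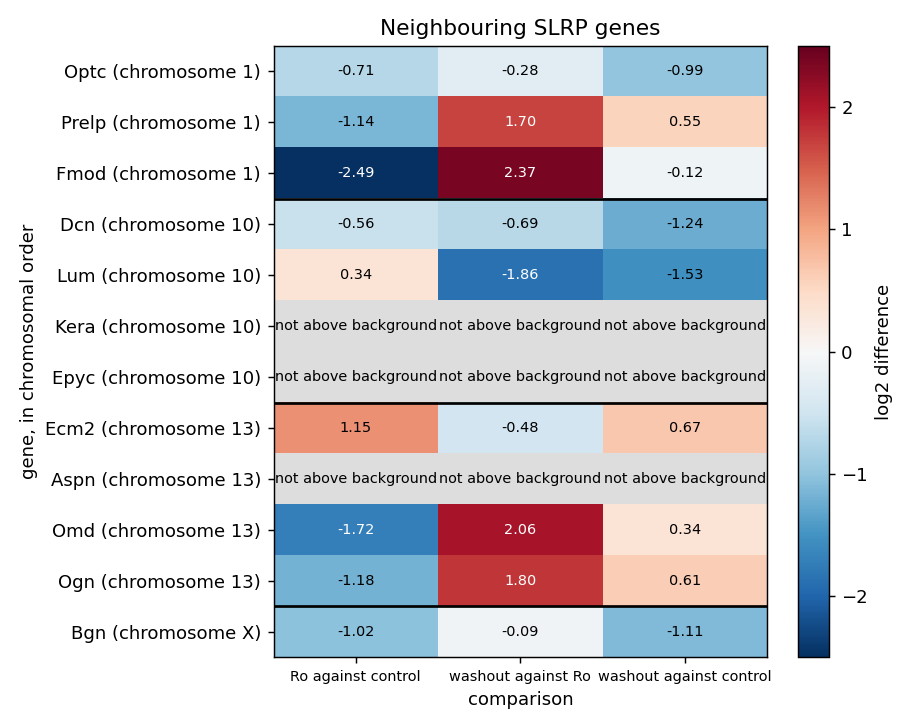
Log2 differences (colour and number) of proteoglycan genes in their chromosomal order (rows, grouped by chromosome) in the 3 comparisons (columns). Prelp and Fmod, and Omd and Ogn, fall in Ro and rise in washout against Ro, while Ecm2 is higher in Ro by 1.15; genes in grey were not above background, and neither was Optc on the washout arrays.

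Of 10 further genes of the family or close to it, 7 were measured. In Ro against control 1 was higher (Ecm2) and 2 lower, with a median of -0.46, where 19.4% of all features were higher and 22.7% lower. Podn, the podocan gene, was at least 2.56-fold lower in Ro than in control (adjusted p = 0.0058) and at least 2.16-fold higher in washout than in Ro (adjusted p = 0.0083), the bounds coming from Ro arrays on which it was not well above background. Chad, which encodes the cartilage protein chondroadherin, changed by -0.46 ± 0.12 (adjusted p = 0.034) in Ro against control and by 0.63 ± 0.12 (adjusted p = 0.013) in washout against Ro. Chad lost the first call with median centring (adjusted p = 0.054), quantile normalization (0.070) or the authors' deposited table (0.054). Chad also lost that call with no filter on dim probes (0.092) or a replicate block (0.056). Its first call ended without any 1 of the Ro and control arrays (adjusted p = 0.067 to 0.158) and its second without Ro replicate 1 (0.077). Nyx, the nyctalopin gene, was lower in washout than in Ro by -1.32 ± 0.25 (adjusted p = 0.012), a call lost without Ro replicate 1 (0.060).

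For 6 of the 7 genes tested, Dcn left out, the 3 named genes that are no members and have the most similar profile over the 6 arrays were taken from 13044 compared, by the root mean square difference of centred log2 levels. For Ogn they were Cfap206 (0.050), Sntg2 and Efcab12, and for Prelp they were Cfap206 (0.039), Cyp4f14 and Ccdc39. Ogn and Prelp themselves differed by 0.051, on different chromosomes. For Omd the nearest were Iqub (0.045), Dnah5 and Plscr2. Cfap206, Ccdc39, Iqub and Dnah5 encode parts of motile cilia or factors that build them. Fmod lay nearest to Nkx6-2 (0.051), a homeobox transcription factor gene, then Slamf9 and Cd72. Bgn was nearest to Sgca (0.096), Pde1b and Adam23, and Lum to Alox5 (0.132), Gipc2 and Arntl2. These are likenesses over 6 arrays on 2 slides, described without a test, and Arntl2 was not well above background on the washout arrays.

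**Figure D4:**
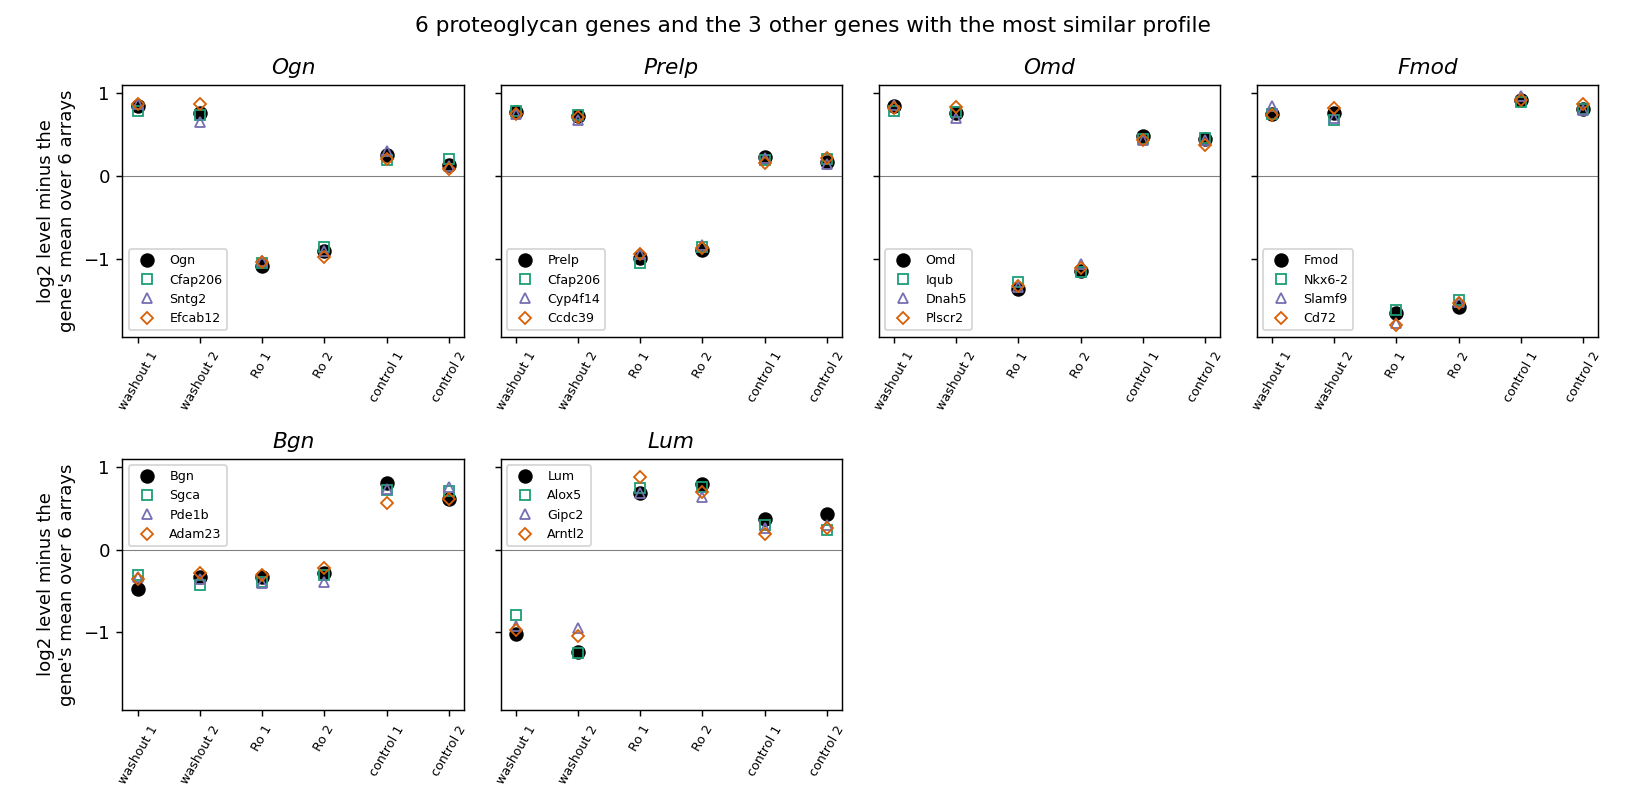
Log2 level of each array minus the gene's mean over the 6 arrays (y axis) for 6 proteoglycan genes (black) and the 3 other genes closest to it (open symbols), array by array. The ciliary genes beside Ogn, Prelp and Omd are low on both Ro arrays and high on both washout arrays, which follows from their choice by likeness on these arrays.

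Marker genes of cell types that such cultures can hold moved as well. Shares over all features stand beside the counts of each list below. In Ro against control 19.4% were higher and 22.7% lower. In washout against Ro 21.4% were higher and 20.1% lower, and in washout against control 4.13% and 5.96%. Of 10 ependymal and choroid plexus markers 7 were measured, and their summed level was 44.2 and 40.6 in washout, 13.2 and 15.4 in Ro, and 36.3 and 35.7 in control. Of the 7, 1 was higher and 4 were lower in Ro against control, and in washout against Ro 5 were higher and 1 lower. The 4 that belong to motile cilia, Foxj1, Ccdc153, Dynlrb2 and Rsph1, were lower in Ro than in control (-1.16, -2.68, -1.85 and -0.89) and higher in washout than in Ro (1.38, 2.36, 2.18 and 1.17), all past the threshold. These are the directions of Ogn, Prelp, Omd and Fmod, and also of many other genes, since 16.5% of all features had both calls. Clic6, an epithelial chloride channel gene, went the other way (1.11 and -1.20, both past the threshold). Of the choroid plexus markers, Ttr was not well above background on any array and Kl was so on washout replicate 2 only. In washout against control, 0 of the 7 passed the threshold in limma, and 3 had an unadjusted p under 0.05, 2 higher and 1 lower. The part of these cells in the proteoglycan changes was not tested.

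Meningeal fibroblasts, for which these proteoglycans are typical, were checked with 30 other markers, of which 22 were measured. Their summed level was 41.3 and 37.5 in washout, 38.1 and 38.1 in Ro, and 48.0 and 54.3 in control. In Ro against control 5 were higher and 11 lower, with a median of -0.35. In washout against Ro 6 were higher and 12 lower, with a median of -0.45, where Ogn, Prelp, Omd and Fmod were 1.70 to 2.37 higher. In washout against control 3 were higher and 13 lower, with a median of -0.60, beside changes of -1.24 for Dcn, -1.11 for Bgn and -1.53 for Lum. The collagen gene Col3a1 (-1.60, 0.14 and -1.46 in Ro against control, washout against Ro and washout against control) and Postn, the periostin gene (-1.81, -0.54 and -2.35), were low in both Ro and washout, like Bgn and Dcn. Mgp (-0.02, -1.69 and -1.71) and Aldh1a2 (0.13, -1.61 and -1.48) were low in washout, like Lum. These 4 were singled out after their values were seen, and other markers of the list went the other way. Fbln1 had levels of 1.15 and 1.03 in washout, 3.87 and 3.92 in Ro, and 0.628 and 0.544 in control. Serping1 had 4.34 and 3.95, 2.48 and 2.92, and 2.17 and 2.10 in the same groups. Dpt, Slc6a13, Crabp2, Col13a1, Col15a1 and Lama1 were not well above background on any array, and Slc22a6 and Twist2 were so on 1 array each. The part of these fibroblasts in the proteoglycan changes was not tested.

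Among 12 pericyte and smooth muscle markers 9 were measured, with a summed level of 444 and 432 in washout, 214 and 216 in Ro, and 559 and 613 in control. Most of that sum came from Tagln and Acta2. Tagln had 256 and 247 in washout, 131 and 133 in Ro, and 304 and 330 in control. Acta2 had 178 and 174, 76.2 and 75.5, and 243 and 270 in the same groups. Of the 9 markers, 1 was higher and 7 lower in Ro against control, and 5 were higher and 1 lower in washout against Ro. In washout against control 0 of them were higher and 5 lower, with a median of -0.54. All 12 astrocyte markers were measured, summing to 242 and 224 in washout, 184 and 195 in Ro, and 242 and 230 in control. Of these 12, 3 were higher and 7 lower in Ro against control, and 7 were higher and 3 lower in washout against Ro. The 9 oligodendrocyte lineage markers measured summed to 25.9 and 23.3 in washout, 14.6 and 16.3 in Ro, and 32.0 and 31.6 in control, and the 9 neuron markers to 15.1 and 14.6, 8.99 and 9.52, and 15.01 and 15.32 in the same groups. Endothelial markers (7 measured) summed to 8.53 and 8.60 in washout, 4.36 and 4.72 in Ro, and 6.70 and 6.53 in control, a sum in which Slco1a4 alone had 7.06 and 7.06, 0.848 and 0.947, and 5.27 and 4.97 in the same groups. Of these 7, 1 was higher and 3 lower in Ro against control, and 2 were higher and 3 lower in washout against Ro. Pecam1 was not well above background on any array, Cdh5 was so on 2 arrays and Cldn5 on 1, none of them both arrays of a group. Microglia markers (13 measured) summed to 32.1 and 30.0 in washout, 26.6 and 31.9 in Ro, and 29.8 and 29.0 in control, with the Ro arrays overlapping both other groups. The part of these cells in the proteoglycan changes was not tested either.

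**Figure D5:**
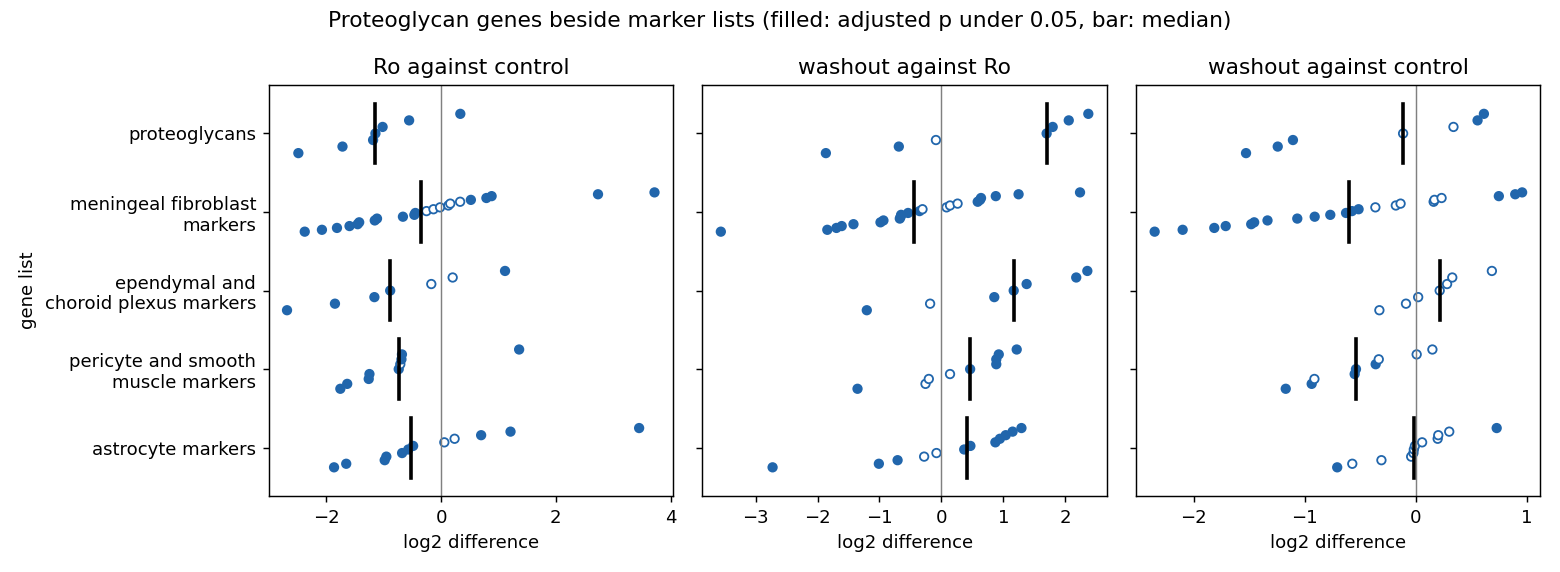
Log2 differences of the 7 proteoglycan genes and of 4 lists of cell type markers (rows) in the 3 comparisons, with a point per gene, filled where the adjusted p is under 0.05, and a bar at the median. The proteoglycan median is -1.14 in Ro against control and 1.70 in washout against Ro, where the meningeal fibroblast list has medians of -0.35 and -0.45.

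Of 27 genes for enzymes that build the glycosaminoglycan chains of these proteins, 23 were measured. Between Ro and control 2 were higher and 8 lower in Ro (median -0.15), where 19.4% of all features were higher and 22.7% lower. Chst3, a chondroitin sulfotransferase, changed by -1.67 ± 0.07 (adjusted p = 0.00018), and by -1.16 ± 0.07 in washout against control (adjusted p = 0.0052). Csgalnact1, which starts chondroitin chains, changed by -1.11 ± 0.21 (adjusted p = 0.013), a call that ended without Ro replicate 1 (0.068) or control replicate 2 (0.066). B3gat3 and Chst2 were higher by 0.39 and 0.37, and neither call held without any 1 of the Ro and control arrays (adjusted p = 0.053 to 0.164). The Chst2 call was also lost with median centring (adjusted p = 0.051), the authors' deposited table (0.057) or a replicate block (0.065). With no filter on dim probes both calls were lost (0.0503 for B3gat3 and 0.095 for Chst2). In washout against Ro 7 of the 23 genes were higher and 4 lower, and in washout against control 0 were higher and 2 lower in limma, with 0 and 9 at an unadjusted p under 0.05.

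Of 36 genes for fibrillar collagens, which these proteoglycans bind, and for collagen assembly, 32 were measured. With the inhibitor 3 were higher and 17 lower than in control (median -0.46), where 42.1% of all features passed. Col5a3 changed by -2.12 ± 0.10 (adjusted p = 0.00023), and Eln, the elastin gene, by 0.68 ± 0.10 (adjusted p = 0.0053), a call that ended with normexp (0.173). Col5a2 was higher by 0.44 ± 0.09, which missed the threshold without Ro replicate 1 (adjusted p = 0.084), Ro replicate 2 (0.067) or control replicate 1 (0.051). In washout against Ro 9 were higher and 9 lower, with Col5a3 up by 1.56 ± 0.10 (adjusted p = 0.00046). The tested probe of Col14a1 was well above background on the control arrays only, and was at least 1.22-fold lower in Ro than in control (adjusted p = 0.0030). Col14a1 is nonetheless 1 of the 9 counted as higher in washout than in Ro, a call between readings at background. In washout against control all 32 differences were below 0 and 16 were lower by the test (median -0.48), where 5.96% of all features were lower. The fall was led by Col3a1 at -1.46 ± 0.11 (adjusted p = 0.0069).

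Growth factors and receptors that bind these proteoglycans moved both ways. Of 34 genes 29 were measured, with 12 higher and 9 lower in Ro against control, 7 higher and 14 lower in washout against Ro, and 1 higher and 3 lower in washout against control. For these counts and those of the proteases below, 42.1%, 41.5% and 10.1% of all features passed in the same comparisons. Kdr, a VEGF receptor that decorin binds, was higher by 3.11 ± 0.10 in Ro against control (adjusted p = 0.00013). Bmp2, a bone morphogenetic protein gene, was at least 6.06-fold higher (adjusted p = 0.00059), although its call ended in the values of the authors' deposited table (0.053). Pdgfb and Bmp6 changed by -1.86 ± 0.08 and -1.82 ± 0.11 (adjusted p = 0.00022 and 0.00041). Of 19 proteases that cut these proteins, and their inhibitors, 13 were measured, with 5 higher and 2 lower in Ro against control, 4 higher and 5 lower in washout against Ro, and 3 higher and 1 lower in washout against control. The collagenase gene Mmp13 was at least 3.75-fold higher in Ro than in control (adjusted p = 5.4e-05), and in washout and control it was not well above background. Mmp13 is nonetheless 1 of the 3 counted as higher in washout than in control, a call between readings at background. The serine protease gene Htra1 was higher by 1.29 ± 0.07 (adjusted p = 0.00031). Timp4 and Timp3, which encode inhibitors of metalloproteases, changed by -2.05 ± 0.10 and -0.48 ± 0.08 (adjusted p = 0.00024 and 0.0087), and the Timp3 call ended without Ro replicate 1 (0.058) or Ro replicate 2 (0.056).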

How the data were processed

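Gene expression was measured on 6 one-colour Agilent arrays, 2 each for washout, Ro and control cultures. The deposited scanner files hold spot intensity values on a linear scale, corrected for background within each array. Per the labels RNA was labelled with Cy3, and the scans were read with Agilent Feature Extraction, version 10.1 in the submitters' processing notes and 10.5.1.1 per the file headers. A deposited series table gives linear ratio values for each probe, with a centring that is not given in the sources used here; its column medians were 0.871 to 0.987, and its probe-centred log2 values correlated with those of the scanner values at 0.994 or above. It served only for an alternative.

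The arrays held 41174 non-control probes, and 106 with flagged spots were left out. From each log2 processed intensity the 75th percentile of its array was subtracted. Probes entered if well above background on both arrays of a group (26469 probes), and the brightest probe of a gene was used (20088 features). Accessions gave a current symbol, through the RefSeq table of GRCm38.p6, for 25097 probes (61.0%). Tests used limma 3.58.1 in R 4.3.3, fitted over all 6 arrays, with two-sided moderated tests (3 residual and 2.09 prior degrees of freedom) and Benjamini-Hochberg adjustment. With 2 arrays a group, the smallest two-sided p of an exact permutation test is 0.333, so every call rests on the spread pooled over groups and features. Where both arrays of a group lacked a signal well above background, the change is a lower bound, taken from the higher of the probe's own signal and the lowest signal of any probe called above background on that array. The procedure was tested on simulated data. In 18 alternatives per gene and comparison, arrays were left out in turn, or the scaling, background correction, dim-probe filter, probe choice, variance model, pairing, values or set of arrays fitted was changed. These are not all separate: leaving out an array of the group not compared gives the same fit as using only the arrays compared. Counts were also taken at a 2-fold minimum. The planned normexp correction used the median spot signal.

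The members and gene lists were chosen with earlier results of these data known. Named genes were the members, the 3 genes most like each, and in each list the 2 largest rises and falls past the threshold in a comparison, of which those in Ro against control are given in full; the genes most like Dcn are not reported here.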

Additional observations from a re-analysis of the deposited data

How the results depend on the processing

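The 7 genes tested kept their direction in all 378 combinations of gene, comparison and alternative: 341 stayed on the same side of the threshold, 36 calls were lost and 1 was gained, that of Omd in washout against control with an intensity trend (adjusted p = 0.040). The number of members higher in Ro than in control (1) became 0 with every probe on its own, the mean of a gene's probes, an intensity trend, no filter on dim probes, normexp, a 2-fold minimum and a replicate block, and was 0 to 1 when 1 array was left out. The number lower in washout than in Ro (2) was 1 at a 2-fold minimum and 1 to 2 without 1 array. The number higher in washout than in control (2) was 0 with no filter, only the arrays compared, a replicate block or a 2-fold minimum and 0 to 1 without 1 array, and the number lower (3) was 1 with no filter. Replicate numbers did not pair the arrays (correlations of deviations of -0.12, 0.08 and -0.11), and the block lowered the features called in washout against control to 298 higher and 468 lower, beside 829 and 1198 without it. With Ro numbers exchanged in the block, chosen after seeing the data, 0 members were higher in Ro than in control. In Ro against control 3895 features were higher and 4563 lower, and these became 2479 and 3334 with no filter, 865 and 1397 at a 2-fold minimum, and as few as 1822 and 2701 without 1 array. In washout against Ro, 4292 higher and 4037 lower became 3128 and 2666 with no filter, 1327 and 984 at a 2-fold minimum, and as few as 2660 and 2089 without 1 array. In washout against control the counts were 62 and 72 with no filter, 315 and 439 with only the arrays compared, 180 and 256 at a 2-fold minimum, 1294 higher with a trend, and as few as 83 and 118 without 1 array. Median centring and the authors' deposited table lowered the share of higher calls in washout against Ro to 40.5% and 38.9%, beside 51.5%, and in washout against control to 30.8% and 29.1%, beside 40.9%; they moved the median of all features in washout against Ro to -0.11 and -0.12. Of 872 values for the list genes, 774 kept their call, 98 lost it and 0 reversed. The totals of 378 and 872 count a repeated fit of the same arrays each time it occurs. The causes were not tested, except that filters and left-out arrays change how many features or arrays enter.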

Other observations

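Among the meningeal fibroblast markers, Islr, which encodes a secreted protein with leucine-rich repeats and an immunoglobulin domain, had changes near those of Fmod. Its levels were 18.5 and 14.6 in washout, 3.34 and 3.63 in Ro, and 17.8 and 18.3 in control, with changes of -2.38 ± 0.13 in Ro against control (adjusted p = 0.00034), 2.24 ± 0.13 in washout against Ro (adjusted p = 0.00038) and -0.14 ± 0.13 in washout against control (adjusted p = 0.544). Cxcl12, a chemokine gene, had levels of 0.452 and 0.415 in washout, 0.184 and 0.182 in Ro, and 0.478 and 0.504 in control, with changes of -1.43 ± 0.08 and 1.25 ± 0.08 in Ro against control and washout against Ro (adjusted p = 0.00033 and 0.00046). Both genes were singled out after their values were seen.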
